A study of Mus musculus with 18 samples.

Results

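Aminoacyl-tRNA synthetases are the enzymes that join each amino acid to its tRNA. The 35 genes described here are 19 that encode the enzymes used in the cytosol and 16 that encode the enzymes used in mitochondria, which carry the suffix 2. They were listed by gene symbol and not filtered on any measured value, but the list was set with earlier results of these data known. Of the 35, 33 could be read on the array, among 19938 genes in all. Of the 19 cytosolic genes 17 were measured. Aars, for alanine, lay only on a probe set that carries more than 1 gene symbol, and Dars, for aspartate, had no probe set with its symbol. All 16 mitochondrial genes were measured.

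The cells were B16 F10.9-4, a mouse melanoma line, and RNA was hybridized to 18 one-colour Affymetrix arrays. Doxycycline induces LIP in them, the short isoform of the transcription factor C/EBP beta, which binds DNA but lacks the activating part of the full protein. Tunicamycin blocks the first step of N-glycosylation, so that unfolded proteins build up in the endoplasmic reticulum. The 6 groups, of 3 arrays each, were doxycycline with 12 h of tunicamycin, 12 h of tunicamycin alone, doxycycline with 5 h of tunicamycin, 5 h of tunicamycin alone, doxycycline at 0 h, and vehicle at 0 h. Each group holds 1 array from each of 3 independent experiments, and all groups are the same cell line with the same inducible LIP. The doxycycline came before the tunicamycin. A vehicle culture at 5 or 12 h and a doxycycline control without the LIP construct were not analysed here, so time in culture cannot be told apart from tunicamycin, nor doxycycline itself from LIP. The values are log2 intensities summarised by RMA, and a change is a difference of group means on that scale.

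The cytosolic enzymes supply charged tRNAs to the ribosomes that translate nuclear messages, and the mitochondrial enzymes, which are also encoded in the nucleus and imported, supply the few messages that mitochondria keep. Gars (glycine) and Kars (lysine) make both forms from 1 gene in mammals, Eprs charges both glutamate and proline tRNAs, and Farsa and Farsb are the subunits of the cytosolic phenylalanine enzyme. Uncharged tRNA activates the kinase GCN2 (Eif2ak4), while unfolded proteins in the endoplasmic reticulum activate PERK (Eif2ak3). Both kinases phosphorylate eIF2 alpha, which favours translation of the transcription factor ATF4, and genes for several cytosolic synthetases are known ATF4 targets in mammals.

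All 33 measured genes lay above a level of 6.08, the 95th percentile of 1190 olfactory and vomeronasal receptor genes taken to be silent in these cells. The members' mean levels over the 18 arrays ran between 6.85 (Pars2, mitochondrial proline) and 12.5. Array medians lay between 7.32 and 7.42 and the arrays of a group correlated at r between 0.997 and 0.999. The widest spread around its group mean was that of the 5 h tunicamycin array of experiment 2 (residual SD 0.113). All 8 melanocyte markers, among them Tyr and Mlana, lay above 6.08, as did 1 of 5 keratinocyte, 4 of 6 fibroblast, 1 of 5 endothelial and 2 of 5 immune markers. Cd68, one of the 2 immune markers, moved with treatment: it averaged 7.64 after 12 h of tunicamycin and 8.36 in vehicle, while the other 4 measured immune markers, among them Ptprc, were not called. Of the fibroblast markers Col1a2 rose by 0.26 in the same comparison. Of the 8 melanocyte markers Mlana and Sox10 were lower in it. The mean level over the 8 was 11.52 to 11.60 after 12 h of tunicamycin and 11.57 to 11.63 in vehicle. At 5 h of tunicamycin Sox10 was higher than in vehicle and Tyr lower. At 12 h against 5 h Sox10, Mitf, Mlana and Cd68 were lower and Tyr higher. The mean log2 level of the 5 immune markers was 5.900 to 6.002 after 12 h of tunicamycin and 6.040 to 6.109 in vehicle, and the part of these genes in the results was not tested.

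After 12 h of tunicamycin, most cytosolic synthetases rose and most mitochondrial ones did not pass the test in either direction. Against vehicle, 13 of the 17 cytosolic genes were higher and 0 lower (adjusted p below 0.05, limma with Benjamini-Hochberg adjustment over all 19938 genes), where 11.9% of all genes were called higher and 15.8% lower. The cytosolic median change was 0.45, beside a median of 0.00 over all genes. Of the 16 mitochondrial genes 5 were higher and 1 lower, with a median change of 0.06. The difference between the classes was not tested. Since RNA came from whole cultures, a change in the number of cells that express a gene and a change in RNA per cell cannot be told apart.

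Wars, which charges tryptophan, changed most. It stood at 12.50, 12.52 and 12.57 after 12 h of tunicamycin, against 11.60, 11.45 and 11.51 in vehicle, a change of 1.00 ± 0.056 (SE, n = 3 arrays per group; adjusted p = 1.07e-10), or 2.01-fold. All 3 treated arrays lay well above every vehicle array. Lars, for leucine, stood at 12.01, 12.05 and 11.84 after 12 h of tunicamycin, against 11.04, 10.89 and 11.14 in vehicle, a change of 0.94 ± 0.070 (adjusted p = 4.91e-09). Tars, for threonine, stood at 10.65, 10.68 and 10.64 after 12 h of tunicamycin, against 9.82, 9.84 and 9.76 in vehicle, a change of 0.85 ± 0.053 (adjusted p = 5.16e-10). The groups did not overlap for either gene, and the treated arrays of Tars lay within a narrow band. Cars, for cysteine, stood at 10.80, 10.83 and 10.70 after 12 h of tunicamycin, against 9.99, 9.98 and 10.04 in vehicle, a change of 0.77 ± 0.063 (adjusted p = 1.90e-08). Here too every treated array was higher than every vehicle array.

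The next cytosolic enzymes in order of change were Eprs (0.74), Sars for serine (0.70), Nars for asparagine (0.67), Gars (0.61), Yars for tyrosine (0.45), Vars for valine (0.42), Iars for isoleucine (0.41) and Farsb (0.21). All of these rose with adjusted p of 0.000464 or less, and the groups did not overlap for any of them. Iars was the only member with 2 probe sets carrying its symbol alone. Its values are those of the brighter, and those of the other are not given here. Its calls were kept with the probe sets averaged. Rars, for arginine, was the weakest call. It stood at 12.17, 12.08 and 12.09 after 12 h of tunicamycin, against 12.09, 11.87 and 11.84 in vehicle, a change of 0.18 ± 0.062 (adjusted p = 0.0364), and the groups overlapped. Its call was lost without the 12 h array of experiment 1 or 3, or the vehicle array of experiment 2 or 3 (adjusted p 0.0573 to 0.187), and without the whole of experiment 2 or 3 (0.132 to 0.297). The 4 cytosolic genes that did not pass were Farsa (0.16, adjusted p = 0.197), Hars for histidine (0.03, adjusted p = 0.826), Qars for glutamine (0.02, adjusted p = 0.897) and Kars (-0.11, adjusted p = 0.259). Of the subunits of the phenylalanine enzyme only Farsb was called, but the changes of 0.21 ± 0.041 for Farsb and 0.16 ± 0.086 for Farsa differed by less than the SE of Farsa.

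**Figure D1:**
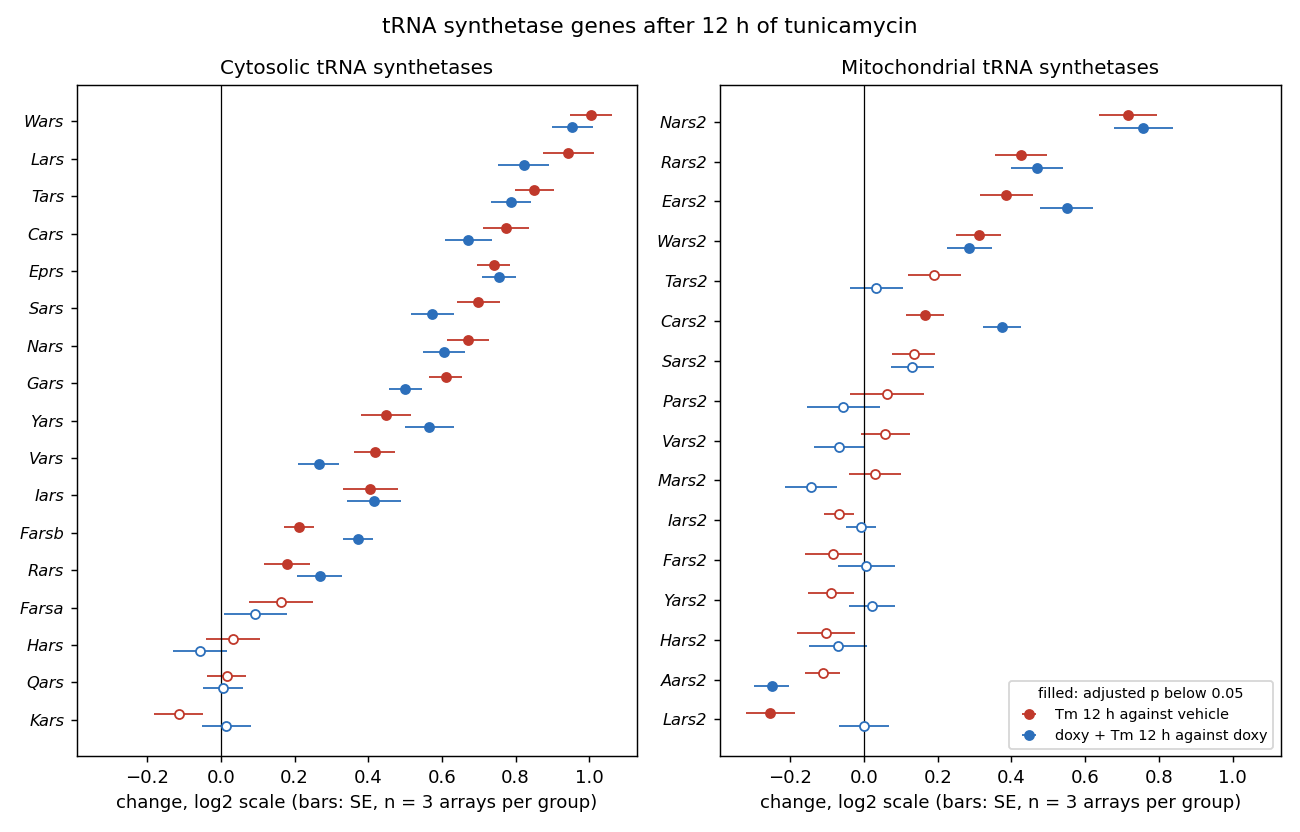
Change in each measured synthetase gene after 12 h of tunicamycin, on the log2 scale, with cytosolic genes on the left and mitochondrial genes on the right; red points compare tunicamycin with vehicle, blue points compare doxycycline with tunicamycin and doxycycline alone, bars are SE and filled points have adjusted p below 0.05. In the cytosolic panel 13 of 17 genes are filled in each comparison, from Rars upward, while most mitochondrial genes lie near 0.

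Grouped by assembly, the enzymes of the multisynthetase complex, a cytosolic particle that holds several synthetases together, included genes with large changes and genes that were not called. Of its 6 measured enzymes Lars, Eprs, Iars and Rars rose and Qars and Kars were not called (median 0.29), and 9 of the 11 cytosolic genes outside it rose (median 0.61). Of the complex's 3 scaffold proteins Aimp1 rose by 0.22 (adjusted p = 0.00332), and Aimp2 and Eef1e1 were not called. By catalytic fold, 7 of 8 class I and 5 of 8 class II genes rose, Eprs carrying both folds. Over all genes 11.9% were called higher after 12 h of tunicamycin against vehicle, and 3 scaffold genes are too few to set against that share. None of these divisions was tested against its complement.

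Among mitochondrial enzymes the asparagine enzyme stood out. Nars2 measured 9.70, 9.75 and 9.59 after 12 h of tunicamycin, against 9.10, 8.83 and 8.96 in vehicle, a change of 0.72 ± 0.080 (adjusted p = 1.02e-06), or 1.64-fold. Every treated array lay clearly above the highest vehicle array. Rars2, for arginine, measured 10.19, 10.39 and 10.16 after 12 h of tunicamycin, against 9.86, 9.69 and 9.91 in vehicle (0.43 ± 0.071, adjusted p = 0.000104). Ears2, for glutamate, measured 8.24, 8.36 and 8.16 after 12 h of tunicamycin, against 7.87, 7.84 and 7.89 in vehicle (0.39 ± 0.072, adjusted p = 0.000348). Both genes had groups that did not overlap, and in both the array of experiment 2 was the highest of the treated arrays. Wars2, for tryptophan, measured 9.33, 9.36 and 9.30 after 12 h of tunicamycin, against 9.06, 8.99 and 9.01 in vehicle (0.31 ± 0.061, adjusted p = 0.000582). Cars2, for cysteine, rose by 0.17 ± 0.052 (adjusted p = 0.0207), a call lost without the 12 h array of experiment 3 or the vehicle array of experiment 1 or 2 (adjusted p 0.0611 to 0.0869), and without any 1 whole experiment (0.0574 to 0.166).

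Lars2, for leucine, was the 1 mitochondrial gene that fell. It measured 8.43, 8.57 and 8.51 after 12 h of tunicamycin, against 8.85, 8.60 and 8.83 in vehicle, a change of -0.25 ± 0.067 (adjusted p = 0.00691). The vehicle array of experiment 2 lay close to the treated arrays and the other vehicle arrays well above them. The call was kept when any single array was left out but not without the arrays of experiment 1 or of experiment 3 (adjusted p 0.207 and 0.153). The other 10 mitochondrial genes, for alanine, phenylalanine, histidine, isoleucine, methionine, proline, serine, threonine, valine and tyrosine, were not called. Their changes lay between -0.11 (Aars2) and 0.19 (Tars2, adjusted p = 0.0541).

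Enzymes for the same amino acid in both compartments were set side by side for 11 amino acids, paired by matching gene symbol. Phenylalanine (Farsa and Farsb with Fars2) and glutamate and proline (Eprs with Ears2 and Pars2) were measured too but not paired. The cytosolic change was the larger in 9 of the 11. The widest gap was at leucine, where Lars changed by 0.94 and Lars2 by -0.25. At tryptophan both rose, by 1.00 for Wars and 0.31 for Wars2. Asparagine and arginine went the other way: Nars changed by 0.67 and Nars2 by 0.72, and Rars by 0.18 and Rars2 by 0.43. Histidine was the pair in which neither enzyme was called. The differences within pairs are descriptions and were not tested.

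**Figure D2:**
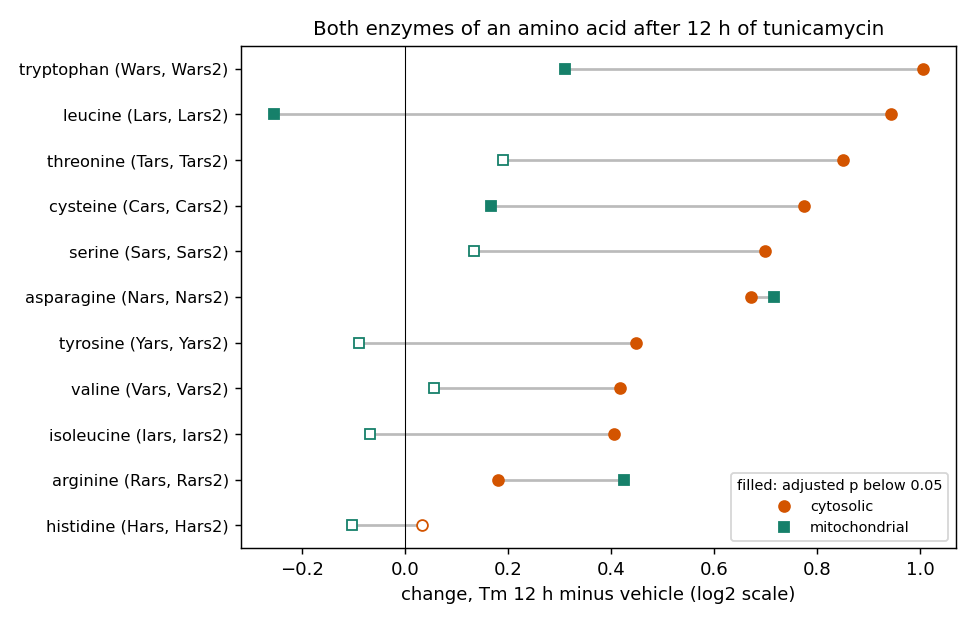
Change after 12 h of tunicamycin against vehicle, log2 scale, for the 11 amino acids paired by gene symbol, with the cytosolic enzyme as orange circle and the mitochondrial enzyme as green square. Filled symbols have adjusted p below 0.05. The circle lies to the right of the square in 9 rows, and to the left for asparagine and arginine.

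The windows before the start sites of these genes were searched for 3 motifs on both strands, because one of them, TGATGNAA, is the core of the composite element that C/EBP and ATF4 family proteins bind. The motifs, too, were chosen with earlier results of these data known. RefSeq windows (GRCm38.p6, 250 bases before to 50 after the annotated start) were at hand for 24 measured members, 10 cytosolic and 14 mitochondrial. The windows of Wars, Lars, Cars, Nars, Vars, Hars and Rars, and of Hars2 and Pars2, were not analysed here, so that 3 of the 4 cytosolic genes of largest change are outside these counts. TGATGNAA was found in 4 of 10 cytosolic windows (40%) and 0 of 15 mitochondrial windows, against 3.97% of all 32851 windows. The 170 bases around each of the 4 matches, and the same stretch of Nars2, the mitochondrial gene that rose most, are shown 5′ to 3′ on the gene's strand, with the matched letters in capitals.
Gars: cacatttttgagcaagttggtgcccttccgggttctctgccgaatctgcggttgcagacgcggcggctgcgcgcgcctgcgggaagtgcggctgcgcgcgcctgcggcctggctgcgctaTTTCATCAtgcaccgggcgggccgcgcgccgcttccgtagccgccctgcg
Iars: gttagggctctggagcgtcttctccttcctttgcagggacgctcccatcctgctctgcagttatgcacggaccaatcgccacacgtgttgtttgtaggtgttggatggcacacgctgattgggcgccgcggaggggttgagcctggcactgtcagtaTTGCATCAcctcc
Tars: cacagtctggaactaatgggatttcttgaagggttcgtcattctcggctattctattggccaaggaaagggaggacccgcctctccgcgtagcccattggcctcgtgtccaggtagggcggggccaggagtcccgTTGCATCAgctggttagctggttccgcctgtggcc
Yars: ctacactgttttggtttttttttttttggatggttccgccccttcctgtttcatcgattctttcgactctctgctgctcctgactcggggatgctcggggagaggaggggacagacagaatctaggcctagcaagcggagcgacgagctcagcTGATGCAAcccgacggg
Nars2: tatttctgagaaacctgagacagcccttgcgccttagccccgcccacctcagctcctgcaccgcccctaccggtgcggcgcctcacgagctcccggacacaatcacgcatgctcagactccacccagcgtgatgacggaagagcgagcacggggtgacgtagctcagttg
The stretches are Gars at chr6:55037851-55038020, Iars at chr13:49681980-49682149, Yars at chr4:129189753-129189922 and Nars2 at chr7:96951377-96951546, all on the plus strand, and Tars at chr15:11399639-11399808 on the minus strand. The match began 30 bases before the annotated start in Gars and 15 before in Tars, and 7 bases after it in Iars and 3 after it in Yars. In Gars, Iars and Tars it was read on the opposite strand, so the capitals show its reverse complement. The changes of these genes after 12 h of tunicamycin were 0.85 for Tars, 0.61 for Gars, 0.45 for Yars and 0.41 for Iars. Eprs and Sars, which changed by 0.74 and 0.70, had no match in their windows, and neither had Nars2. The windows of Eprs and Nars2 lay inside the gene's annotated span, as did those of Aars2, Tars2 and Wars2. The outermost annotated start of these genes was therefore not searched. The endoplasmic reticulum stress element, searched as its full consensus of the CCAAT and CCACG boxes, was in 0 of 10 cytosolic and 0 of 15 mitochondrial windows (0.119% of all windows). The palindromic GCGC core bound by NRF1 was in 3 of 10 cytosolic windows (Farsb, Kars, Tars) and 2 of 15 mitochondrial windows (Iars2, Mars2), against 4.60% of all windows. No match of one motif overlapped a match of another.

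At 5 h of tunicamycin few synthetases were called. Against vehicle, 0 of 17 cytosolic genes were called in either direction by limma, and 2 of 16 mitochondrial genes were higher and 0 lower (4.08% of all genes were higher and 4.94% lower). At an unadjusted p below 0.05 there were 2 cytosolic and 8 mitochondrial genes. The number of mitochondrial genes called higher depended on the processing: it was 6 with quantile normalization repeated or with array weights, 4 without the 5 h array of experiment 2 and the 12 h array of experiment 3 of tunicamycin alone (a pair chosen after seeing the data), and 1 with array medians set equal or only the compared groups. The cytosolic median change was 0.06 and the mitochondrial one 0.11, beside 0.02 over all genes. Cars had the smallest cytosolic p: it stood at 10.25, 10.07 and 10.15 after 5 h of tunicamycin, against 9.99, 9.98 and 10.04 in vehicle (0.15 ± 0.063, adjusted p = 0.155). Nars2 measured 9.32, 9.12 and 9.32 after 5 h of tunicamycin, against 9.10, 8.83 and 8.96 in vehicle (0.29 ± 0.080, adjusted p = 0.0287). Mars2, the mitochondrial methionine enzyme, measured 9.20, 9.34 and 9.23 after 5 h of tunicamycin, against 8.98, 9.01 and 9.01 in vehicle (0.26 ± 0.071, adjusted p = 0.0262). The groups did not overlap for either mitochondrial gene. Both calls were lost in most fits that left out 1 array. The Nars2 call was lost without the 5 h array of experiment 1 or 3 or the vehicle array of experiment 2 or 3 (adjusted p 0.0834 to 0.145), and the Mars2 call on leaving out any array but the 5 h array of experiment 1 (0.0559 to 0.114). Leaving out whole experiments, Nars2 was lost without experiment 1 or 3 (0.0733 to 0.312) and Mars2 without any 1 experiment (0.0613 to 0.231).

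Between 5 and 12 h of tunicamycin, 12 of 17 cytosolic genes were higher at 12 h and 0 lower (11.4% of all genes higher, 13.6% lower), with a median change of 0.48. Wars stood at 12.50, 12.52 and 12.57 at 12 h, against 11.65, 11.60 and 11.62 at 5 h (0.90 ± 0.056, adjusted p = 5.79e-10). Lars stood at 12.01, 12.05 and 11.84 at 12 h, against 11.16, 11.07 and 11.19 at 5 h (0.83 ± 0.070, adjusted p = 3.22e-08). At 5 h Wars and Lars had changed by 0.10 and 0.11 against vehicle, and neither was called. Tars stood at 10.65, 10.68 and 10.64 at 12 h, against 9.98, 9.82 and 9.90 at 5 h (0.76, adjusted p = 2.58e-09), and Eprs at 12.25, 12.27 and 12.25 at 12 h, against 11.64, 11.57 and 11.67 at 5 h (0.63, adjusted p = 4.37e-09). The later arrays of both genes lay above all the earlier ones. Of the mitochondrial genes 3 were higher (Nars2 0.43, Cars2 0.27, Rars2 0.23) and 2 lower (Mars2 -0.23, Yars2 -0.19), with a median change of 0.01. Nars2 measured 9.70, 9.75 and 9.59 at 12 h, against 9.32, 9.12 and 9.32 at 5 h (adjusted p = 0.00042). Cars2 measured 9.214, 9.2351 and 9.2894 at 12 h, against 9.0025, 8.8933 and 9.0457 at 5 h (adjusted p = 0.000647). Rars2 measured 10.19, 10.39 and 10.16 at 12 h, against 10.05, 9.90 and 10.10 at 5 h (adjusted p = 0.0201). The groups of Rars2 came close without overlapping, and those of Nars2 and Cars2 were further apart. Mars2 measured 8.94, 9.07 and 9.07 at 12 h, against 9.20, 9.34 and 9.23 at 5 h (adjusted p = 0.0214), so that its 12 h arrays were back near the vehicle arrays. The Mars2 call was lost without the 12 h array of experiment 1 or the 5 h array of experiment 2 (adjusted p 0.0962 to 0.107). The Rars2 call was lost without the 12 h or 5 h array of experiment 2 (0.111 to 0.128), and the Yars2 call without the 12 h or 5 h array of experiment 1 or 3 (0.0609 to 0.116). Without a whole experiment, the Mars2 (0.0609 to 0.12) and Yars2 (0.187 to 0.237) calls were lost without experiment 1 or 3, the Rars2 call without experiment 1 or 2 (0.074 to 0.323) and, of the cytosolic calls, that of Farsb without experiment 3 (0.0534).

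**Figure D3:**
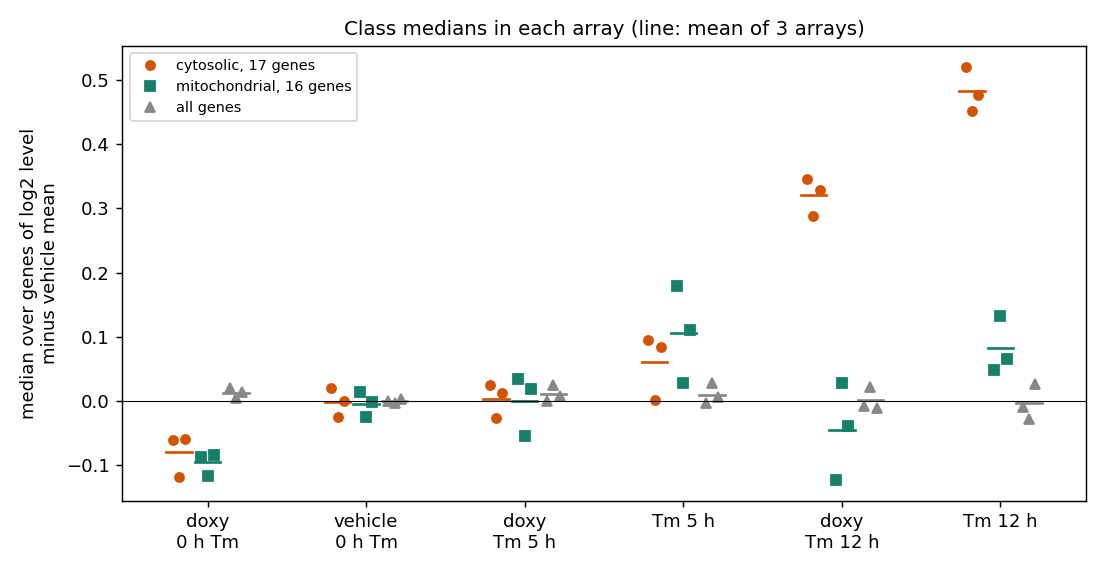
Median log2 level of the 17 cytosolic genes (orange circles), the 16 mitochondrial genes (green squares) and all genes (grey triangles) in each of the 18 arrays, after subtracting each gene's vehicle mean; lines are means of 3 arrays. The cytosolic medians of the 12 h arrays lie at 0.29 to 0.35 with doxycycline and 0.45 to 0.52 without it, above the mitochondrial medians in every 12 h array.

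With doxycycline present, 12 h of tunicamycin moved the same number of cytosolic genes. Against doxycycline alone, 13 of 17 were higher and 0 lower (13.4% of all genes higher, 16.6% lower), with a median change of 0.50. All 13 are also among the 13 called without doxycycline. Wars stood at 12.30, 12.44 and 12.37 with doxycycline and 12 h of tunicamycin, against 11.52, 11.37 and 11.35 with doxycycline alone (0.95 ± 0.056, adjusted p = 1.98e-10). Lars stood at 11.99, 11.88 and 11.90 with doxycycline and 12 h of tunicamycin, against 11.06, 11.13 and 11.11 with doxycycline alone (0.82 ± 0.070, adjusted p = 2.44e-08). Both genes kept the groups far apart. Tars stood at 10.76, 10.62 and 10.63 with doxycycline and 12 h of tunicamycin, against 9.88, 9.85 and 9.91 with doxycycline alone (0.79, adjusted p = 1.25e-09). Eprs stood at 12.36, 12.37 and 12.34 with doxycycline and 12 h of tunicamycin, against 11.55, 11.57 and 11.68 with doxycycline alone (0.76, adjusted p = 3.06e-10). Neither gene's groups overlapped. Rars rose by 0.27 (adjusted p = 0.0023) and its call was kept when any single array was left out. Of the cytosolic calls that of Vars was lost without experiment 2 (0.0534). In the same comparison 5 of the 8 melanocyte markers were lower (Sox10, Pmel, Mlana, Mitf and Dct), with a mean level over the 8 of 10.99 to 11.03 with doxycycline and 12 h of tunicamycin and 11.25 to 11.27 with doxycycline alone. Cd68 (-0.56) and Pdgfra (-0.25) were lower and Col1a1 (0.30) higher, the 1 immune and 2 fibroblast markers called, and 0 keratinocyte and 0 endothelial markers were called. The mean level of the 5 immune markers was 5.86 to 5.91 with doxycycline and 12 h of tunicamycin and 5.98 to 6.07 with doxycycline alone. That of the 6 fibroblast markers was 6.41 to 6.49 with doxycycline and 12 h of tunicamycin and 6.42 to 6.45 with doxycycline alone, and the part of these genes in the synthetase calls was not tested.

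The mitochondrial genes called under doxycycline at 12 h were Nars2 (0.76), Ears2 (0.55), Rars2 (0.47), Cars2 (0.37) and Wars2 (0.29), all higher, and Aars2 for alanine (-0.25), lower, with a median over all 16 of 0.01. The 5 that rose also rose without doxycycline. Nars2 measured 9.38, 9.42 and 9.45 with doxycycline and 12 h of tunicamycin, against 8.73, 8.59 and 8.65 with doxycycline alone (adjusted p = 4.26e-07). Ears2 measured 8.25, 8.47 and 8.33 with doxycycline and 12 h of tunicamycin, against 7.83, 7.77 and 7.80 with doxycycline alone (adjusted p = 6.45e-06). Neither pair of groups overlapped. Rars2 measured 10.27, 10.35 and 10.32 with doxycycline and 12 h of tunicamycin, against 9.76, 9.87 and 9.91 with doxycycline alone (adjusted p = 3.2e-05). Cars2 measured 9.28, 9.32 and 9.31 with doxycycline and 12 h of tunicamycin, against 8.89, 8.90 and 8.99 with doxycycline alone (adjusted p = 1.23e-05). The treated arrays of both genes lay within a narrow band above the others. Aars2 measured 8.20, 8.35 and 8.31 with doxycycline and 12 h of tunicamycin, against 8.54, 8.51 and 8.57 with doxycycline alone (adjusted p = 0.000332). Lars2, which fell without doxycycline, measured 8.56, 8.56 and 8.61 with doxycycline and 12 h of tunicamycin, against 8.57, 8.63 and 8.54 with doxycycline alone, and these groups overlapped. The doxycycline by tunicamycin interaction for Lars2 was 0.25 ± 0.095 and was not called. The tunicamycin changes at 12 h with and without doxycycline, which share no arrays, correlated across genes at r = 0.96 over the 17 cytosolic genes (Spearman rho 0.97), 0.88 over the 16 mitochondrial genes (rho 0.79) and 0.86 over all genes (rho 0.67). Genes are not independent replicates, and these are descriptions.

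At 5 h under doxycycline, 2 of 17 cytosolic genes were higher than with doxycycline alone and 5 of 16 mitochondrial genes (6.54% of all genes higher, 5.56% lower), and 0 of either class were lower. The cytosolic genes were Rars (0.27, adjusted p = 0.00724) and Tars (0.23, adjusted p = 0.00776). Rars stood at 12.12, 12.09 and 12.17 with doxycycline and 5 h of tunicamycin, against 11.83, 11.91 and 11.83 with doxycycline alone. Tars stood at 10.11, 10.04 and 10.17 with doxycycline and 5 h of tunicamycin, against 9.88, 9.85 and 9.91 with doxycycline alone. Neither gene's groups overlapped. The mitochondrial genes were Nars2 (0.44), Ears2 (0.35), Yars2 for tyrosine (0.29), Mars2 (0.28) and Rars2 (0.28), among them both genes called at 5 h without doxycycline. Nars2 measured 9.25, 8.95 and 9.08 with doxycycline and 5 h of tunicamycin, against 8.73, 8.59 and 8.65 with doxycycline alone (adjusted p = 0.00103). Yars2 measured 10.16, 10.17 and 10.31 with doxycycline and 5 h of tunicamycin, against 9.90, 9.91 and 9.95 with doxycycline alone (adjusted p = 0.00404). Every treated array was higher than every array of doxycycline alone for both. Ears2 measured 8.20, 8.08 and 8.18 with doxycycline and 5 h of tunicamycin, against 7.83, 7.77 and 7.80 with doxycycline alone (adjusted p = 0.00271). Mars2 measured 9.22, 9.22 and 9.25 with doxycycline and 5 h of tunicamycin, against 8.89, 9.02 and 8.94 with doxycycline alone (adjusted p = 0.0122). These groups were separate too. The Rars and Tars calls were kept when any single array was left out but lost without experiment 1 or experiment 3 (0.0595 to 0.167 for Rars, 0.0789 to 0.174 for Tars). The Ears2 call was also lost without either of these experiments (0.0584 to 0.0903) and the Yars2 call without experiment 3 (0.136). The Mars2 call was lost without the doxycycline array of experiment 1 (0.0637), and the Rars2 call without that array or the doxycycline and tunicamycin array of experiment 1 (0.0576 to 0.0774). Both were lost without experiment 1 or 3 (0.0675 to 0.237 for Mars2, 0.0607 to 0.303 for Rars2). Over all fits that left out 1 array or experiment, the cytosolic count ran from 0 to 3 and the mitochondrial count from 1 to 5.

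**Figure D4:**
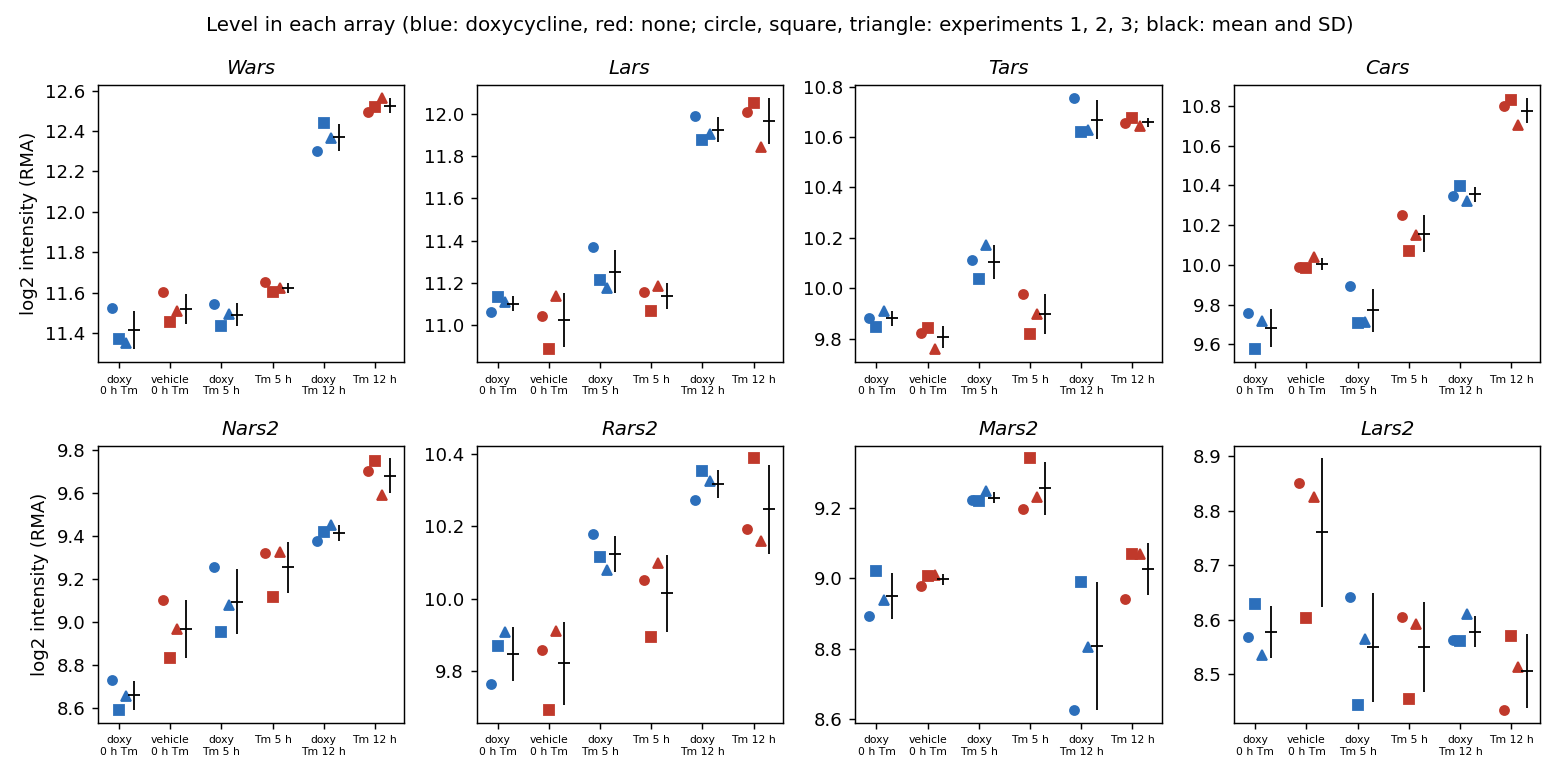
Log2 intensity of 8 synthetase genes in each of the 18 arrays, in the 6 groups; blue symbols are doxycycline groups and red symbols groups without it, circle, square and triangle are experiments 1, 2 and 3, and black marks are the mean and SD of 3 arrays. Wars and Lars are near their starting level at 5 h and high at 12 h, Tars is high at 12 h and, with doxycycline, already higher at 5 h, Nars2 is already higher at 5 h, Mars2 is highest at 5 h, and Cars lies lower with doxycycline at each time.

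A few synthetases were lower with doxycycline alone. At 0 h 0 of 17 cytosolic genes were higher and 4 lower than in vehicle, and 0 of 16 mitochondrial genes higher and 1 lower (4.89% of all genes higher, 5.82% lower). The 1 mitochondrial gene lower is 6.25% of its class, near the share over all genes. The median changes were -0.10 and -0.09. Cars stood at 9.76, 9.57 and 9.72 with doxycycline, against 9.99, 9.98 and 10.04 in vehicle (-0.32 ± 0.063, adjusted p = 0.00232). Vars stood at 10.97, 10.86 and 10.97 with doxycycline, against 11.15, 11.15 and 11.15 in vehicle (-0.22 ± 0.056, adjusted p = 0.0147). Every doxycycline array of both genes lay below the vehicle arrays. Gars stood at 12.11, 12.09 and 12.18 with doxycycline, against 12.29, 12.28 and 12.36 in vehicle (-0.18, adjusted p = 0.0103). Kars stood at 10.39, 10.30 and 10.35 with doxycycline, against 10.61, 10.49 and 10.60 in vehicle (-0.22, adjusted p = 0.0431). Nars2 measured 8.73, 8.59 and 8.65 with doxycycline, against 9.10, 8.83 and 8.96 in vehicle (-0.31, adjusted p = 0.0163). The groups of all 3 were separate, by small margins. Of these calls only that of Cars was kept when any single array was left out, and it was lost without the arrays of experiment 3 (0.0773). The Vars call was lost without the doxycycline array of experiment 2 (0.0847), the Gars call without that array or the vehicle array of experiment 3 (0.0544 to 0.0604), the Nars2 call without the vehicle array of experiment 1 or the doxycycline array of experiment 2 or 3 (0.0512 to 0.106), and the Kars call without any array but the vehicle array of experiment 2 (0.0674 to 0.156). Without a whole experiment, the Gars (0.0861 to 0.156), Vars (0.0523 to 0.172) and Kars (0.105 to 0.263) calls were lost whichever was left out, and the Nars2 call without experiment 1 or 3 (0.12 to 0.197). With the experiment as a block, Cars2 was also called lower, which made 2 mitochondrial genes. In the same comparison 6 of the 8 melanocyte markers were lower, and their mean level was 11.25 to 11.27 with doxycycline and 11.57 to 11.63 in vehicle. At 12 h of tunicamycin 7 of the 8 were lower with doxycycline (mean level 10.99 to 11.03, against 11.52 to 11.60 without it). Of the other markers at 0 h Cd68 (-0.43) and Col1a2 (-0.31) were lower with doxycycline, and 0 of the 5 keratinocyte and 0 of the 5 endothelial markers were called. The mean level of the 5 immune markers was 5.98 to 6.07 with doxycycline and 6.04 to 6.11 in vehicle. That of the 6 fibroblast markers was 6.42 to 6.45 with doxycycline and 6.42 to 6.44 in vehicle. The part of the marker genes in the synthetase calls was not tested.

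At 5 h of tunicamycin, 1 of 17 cytosolic genes was higher and 2 lower with doxycycline than without it. Of 16 mitochondrial genes 0 were higher and 1 lower. Over all genes 6.76% were higher and 5.21% lower. The 1 cytosolic gene higher (5.88%) and the 1 mitochondrial gene lower (6.25%) are near these shares, and the 2 cytosolic genes lower are 11.8%. Cars stood at 9.90, 9.71 and 9.71 with doxycycline and tunicamycin, against 10.25, 10.07 and 10.15 with tunicamycin alone (-0.39 ± 0.063, adjusted p = 0.000332), and the groups did not overlap. Gars stood at 12.25, 12.17 and 12.16 with doxycycline and tunicamycin, against 12.40, 12.36 and 12.40 with tunicamycin alone (-0.20, adjusted p = 0.00465). Tars was the 1 gene that was higher, at 10.11, 10.04 and 10.17 with doxycycline and tunicamycin, against 9.98, 9.82 and 9.90 with tunicamycin alone (0.21, adjusted p = 0.0124). Wars2 measured 9.04, 8.86 and 8.97 with doxycycline and tunicamycin, against 9.22, 9.17 and 9.18 with tunicamycin alone (-0.23 ± 0.061, adjusted p = 0.0156). The Tars call was lost without the tunicamycin array of experiment 2 or the doxycycline and tunicamycin array of experiment 3 (0.0667 to 0.0718), and the Wars2 call without the tunicamycin array of experiment 1 or the doxycycline and tunicamycin array of experiment 2 (0.0577 to 0.098). The Gars call was kept when any single array was left out, but was lost without any 1 experiment (0.0527 to 0.16) and when only the compared groups were fitted (0.0636). The Tars (0.0509 to 0.266) and Wars2 (0.0528 to 0.168) calls were also lost without any 1 experiment. That of Cars was kept in these fits. In this comparison 7 of the 8 melanocyte markers were lower with doxycycline (mean level 11.13 to 11.26 with it, 11.52 to 11.68 without it), as were Cd68 (-0.41) and Col1a2 (-0.39). The mean level of the 5 immune markers was 5.95 to 6.01 with doxycycline and 6.04 to 6.09 without it, and that of the 6 fibroblast markers 6.39 to 6.51 with doxycycline and 6.42 to 6.63 without it. The part of these genes was not tested.

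At 12 h of tunicamycin 4 of 17 cytosolic and 3 of 16 mitochondrial genes were lower with doxycycline than without it. In either class 0 were higher (6.95% of all genes higher, 7.77% lower). The median changes were -0.10 and -0.08. Cars stood at 10.35, 10.40 and 10.32 with doxycycline and tunicamycin, against 10.80, 10.83 and 10.70 with tunicamycin alone (-0.42 ± 0.063, adjusted p = 9.5e-05). Vars stood at 11.06, 11.29 and 11.24 with doxycycline and tunicamycin, against 11.53, 11.60 and 11.57 with tunicamycin alone (-0.37 ± 0.056, adjusted p = 0.000101). Gars stood at 12.66, 12.59 and 12.64 with doxycycline and tunicamycin, against 12.91, 12.91 and 12.94 with tunicamycin alone (-0.29 ± 0.044, adjusted p = 0.000102). In all 3 the highest array with doxycycline was below the lowest without it. Sars stood at 12.40, 12.32 and 12.26 with doxycycline and tunicamycin, against 12.65, 12.57 and 12.52 with tunicamycin alone (-0.26, adjusted p = 0.00452). These 4 cytosolic calls were kept when any single array was left out. Leaving out a whole experiment lost only the Sars call, without experiment 3 (0.0989). Cars and Gars were called lower with doxycycline at all 3 times, in groups that share no arrays between times, but the Gars calls at 0 and 5 h were each lost without any 1 experiment and the Cars call at 0 h without experiment 3. At 12 h Col1a1 was higher with doxycycline (0.25) and Col1a2 lower (-0.49), while Cd68 was not called (-0.28, adjusted p = 0.054). The mean level of the 6 fibroblast markers was 6.41 to 6.49 with doxycycline and 6.42 to 6.62 without it, and the part of these genes in the synthetase calls was not tested.

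The 3 mitochondrial calls at 12 h were less stable. Nars2 measured 9.38, 9.42 and 9.45 with doxycycline and tunicamycin, against 9.70, 9.75 and 9.59 with tunicamycin alone (-0.27 ± 0.080, adjusted p = 0.0284). Tars2, for threonine, measured 9.73, 10.06 and 9.93 with doxycycline and tunicamycin, against 10.17, 10.21 and 10.14 with tunicamycin alone (-0.26 ± 0.071, adjusted p = 0.0149). Mars2 measured 8.63, 8.99 and 8.81 with doxycycline and tunicamycin, against 8.94, 9.07 and 9.07 with tunicamycin alone (-0.22 ± 0.071, adjusted p = 0.0425). The groups overlapped for Mars2 and not for Nars2 or Tars2. The Nars2 call was lost without any array but the tunicamycin array of experiment 3 (0.0525 to 0.112), the Tars2 call without the doxycycline and tunicamycin array of experiment 1 or the tunicamycin array of experiment 2 (0.0552 to 0.102), and the Mars2 call without the doxycycline and tunicamycin array of experiment 1 or 3 or the tunicamycin array of experiment 2 or 3 (0.102 to 0.252). Without a whole experiment, the Nars2 call was lost whichever was left out (0.0583 to 0.147), and the Tars2 (0.148 to 0.155) and Mars2 (0.212 to 0.373) calls without experiment 1 or 3.

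**Figure D5:**
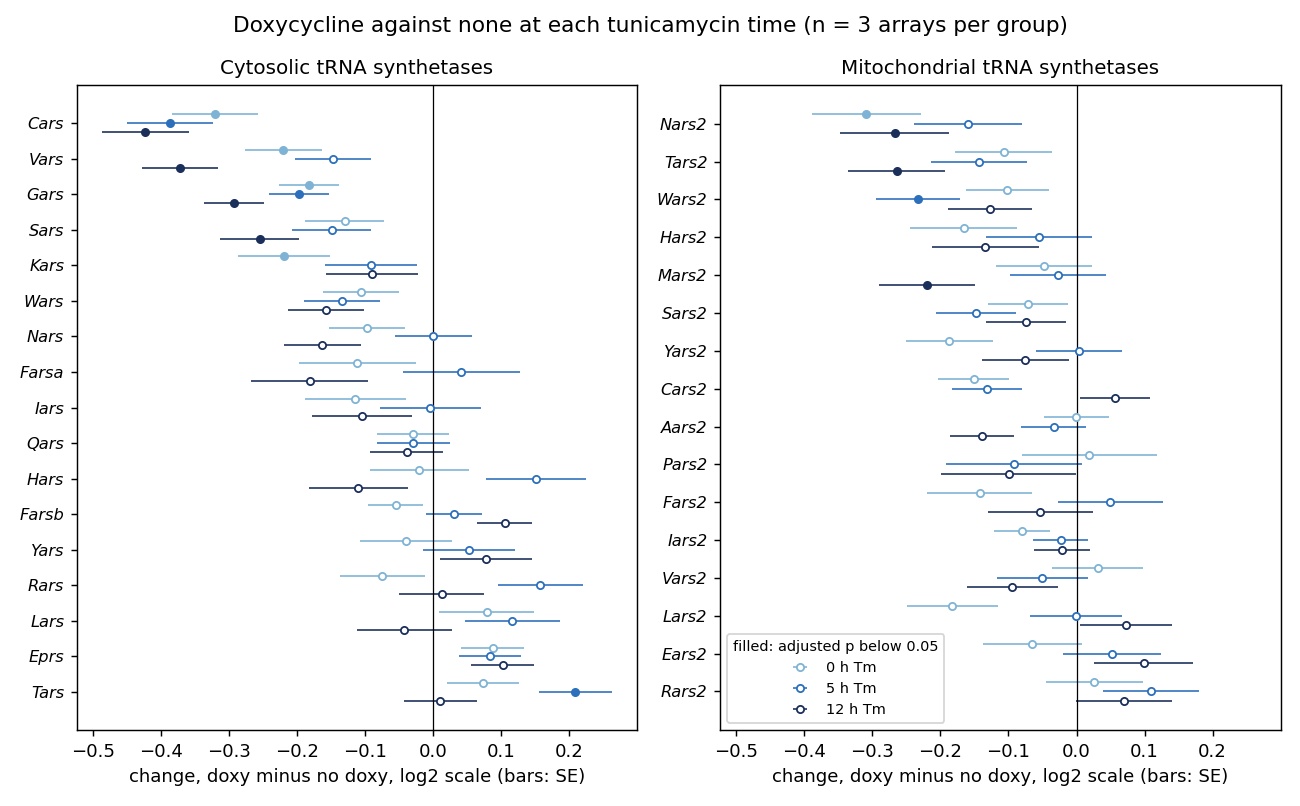
Change with doxycycline against none at 0, 5 and 12 h of tunicamycin (light to dark blue), on the log2 scale, for each measured cytosolic (left) and mitochondrial (right) synthetase gene; bars are SE and filled points have adjusted p below 0.05. Cars and Gars are filled below 0 at all 3 times, and most other points are open.

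Whether doxycycline altered the tunicamycin change was tested as an interaction. By limma 0 of the 33 genes were called at 5 h and 0 at 12 h, where 0.0301% of all genes were called higher and 0% lower at 5 h, and 0.993% higher and 0.848% lower at 12 h. At an unadjusted p below 0.05 there were 2 members at 5 h (Rars 0.23 ± 0.088, Yars2 0.19 ± 0.090) and 3 at 12 h (Lars2 0.25 ± 0.095, Cars2 0.21 ± 0.073, Farsb 0.16 ± 0.058). A p above the threshold does not show that doxycycline left the response as it was.

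The counts of genes around tRNA charging are given beside the shares over all genes. Of 8 measured genes of the response to uncharged tRNA and eIF2 alpha phosphorylation, 6 rose and 2 fell after 12 h of tunicamycin against vehicle, which is 75% and 25% of them, against 11.9% and 15.8% of all genes. Trib3, a pseudokinase induced by ATF4, changed by 2.91, Ddit3, which encodes the transcription factor CHOP, by 2.89 and Atf5, a relative of Atf4, by 1.56. Gcn1 (-0.19) and Eif2ak4 (-0.17), which act in sensing uncharged tRNA, were the 2 that fell. At 5 h 4 of the 8 had already risen (50%, against 4.08% of all genes), with Trib3 and Ddit3 at 1.17 each, when 0 cytosolic synthetases were called. With doxycycline at 0 h, Atf5 (0.49), Atf4 (0.36) and Asns (0.19), the ATF4-induced asparagine synthetase, were higher than in vehicle and Ddit3 (-0.35) was lower, which is 3 and 1 of the 8 genes, against 4.89% of all genes higher and 5.82% lower.

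Of 10 genes that help in charging, 2 rose (20%) and 1 fell (10%) after 12 h of tunicamycin against vehicle, not far from the shares of 11.9% and 15.8% over all genes. They were Sepsecs (0.38), which completes selenocysteine on its tRNA, Gatc (0.27), a subunit of the amidotransferase that makes mitochondrial glutaminyl-tRNA from the product of Ears2, and Aarsd1 (-0.23), which edits mischarged alanine tRNA. Of 5 measured cytosolic elongation factors 0 rose and Eef1d (-0.28) fell (20%). Of 9 mitochondrial translation factors 0 rose and 2 fell, Gfm1 (-0.32) and Tufm (-0.32), the elongation factors G1 and Tu of mitochondria (22.2%). With so few genes, these shares of lower calls are near the 15.8% of all genes. Under doxycycline all 3 scaffold genes of the multisynthetase complex were higher after 12 h of tunicamycin than with doxycycline alone, Aimp1 by 0.36, Aimp2 by 0.20 and Eef1e1 by 0.15. Over all genes 13.4% were higher, and 3 genes are too few to set against that share. The doxycycline by tunicamycin interaction at 12 h was not called for any of the 3.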

How the data were processed

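Total RNA of 18 cultures was measured on one-colour Affymetrix arrays. The values the authors deposited are log2 intensities of 35557 probe sets, summarised by RMA with Partek per the submitters' processing notes; versions, settings and a genome build are not given in the sources used here. RMA understates the change of dim genes, and the number of arrays limits the precision. Of the probe sets 21789 carry 1 gene symbol, 1621 several and 12147 none. The brightest single-symbol probe set per gene was kept, which left 19938 genes.

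Groups came from the labels. Group means over all 18 arrays were fitted with limma 3.58.1 (R 4.3.3; 12 residual and 5.99 prior degrees of freedom). P-values were adjusted by Benjamini-Hochberg over all genes in each of the 10 comparisons, with a threshold of 0.05. The procedure was tested on simulated data. The members, lists, motifs and tests were chosen with earlier results of these data known. Values in every array are given for up to 4 called cytosolic and 4 called mitochondrial genes of largest change in a comparison, or for the gene of smallest p in a class with none called.

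The series' design states 3 independent experiments that each held all 6 conditions, and the numbers in the labels were read as these experiments, which pairs the arrays. Over 45 same-number array pairs, the median correlation of deviations was 0.04 (-0.50 to 0.50), 14 pairs were over 0.1, and the median over other pairs was -0.01. The experiment as a block, other normalizations, variance models, filters and left-out arrays were alternatives.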

Additional observations from a re-analysis of the deposited data

Results flagged for a closer look

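Mtfmt, which formylates the mitochondrial initiator methionyl-tRNA, was the 1 gene of the charging lists with a called interaction: its change after 12 h of tunicamycin was larger with doxycycline by 0.46 ± 0.086 on the log2 scale (limma adjusted p = 0.00706). It stood at 10.21, 10.02 and 10.07 with doxycycline and 12 h of tunicamycin, 9.76, 9.84 and 9.84 with 12 h of tunicamycin alone, 9.78, 9.67 and 9.64 with doxycycline alone, and 9.89, 9.87 and 9.85 in vehicle. The tunicamycin change was 0.40 against doxycycline alone and -0.06 against vehicle. At 5 h of tunicamycin it stood at 9.88, 9.96 and 9.91 with doxycycline and 10.12, 9.92 and 9.95 without it. Over all genes 0.993% were called higher in the 12 h interaction. The alternative and left-out fits covered the synthetase genes only, so how the Mtfmt call depends on them was not tested.

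For some synthetases the sign of the doxycycline difference was the same in all 3 experiments at one tunicamycin time and the opposite in all 3 at another. All 33 measured synthetases were screened for this over each pair of times. The share of all genes with such a switch was not counted, and whether these are more than such a screen gives by chance was not tested. Farsb changed with doxycycline by 0.0306 at 5 h and by 0.105 at 12 h, against -0.06 at 0 h. Yars changed by 0.0521 at 5 h, against -0.04 at 0 h, and Fars2 by 0.0495 at 5 h, against -0.14 at 0 h. Ears2 changed by 0.10 at 12 h, against -0.06 at 0 h. Cars2 changed by 0.0568 at 12 h, against -0.15 at 0 h and -0.13 at 5 h. The interaction tests against 0 h did not pass the threshold: adjusted p was 0.712 at 5 h and 0.215 at 12 h for Farsb, 0.815 for Yars, 0.667 for Fars2, 0.562 for Ears2 and 0.204 for Cars2. The difference between 12 h and 5 h for Cars2 was not tested.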

How the results depend on the processing

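Of 80 calls of synthetase genes over the comparisons, 80 were kept with the experiment as a block, 80 with a variance trend, 80 with probe sets of a gene averaged, 80 without dim genes, 79 with array weights, 78 with quantile normalization repeated, 76 with array medians set equal and 71 when only the compared groups were fitted. Without the 5 h array of experiment 2 and the 12 h array of experiment 3, both without doxycycline and chosen after seeing the data, 73 were kept. In fits that left out 1 array or experiment 52 were kept throughout and 28 lost at least once. No call reversed under these alternatives. The causes of the changes were not tested.

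These counts moved. For 12 h of tunicamycin, 2 mitochondrial genes were lower with array weights. For 5 h of tunicamycin, cytosolic genes higher were 1 (Cars) with quantile normalization and 2 (Cars, Eprs) with array weights; mitochondrial genes higher were 6 with either of these, 4 without the pair of arrays, and 1 with medians set equal or only the compared groups; Lars2 alone was lower (1) with quantile normalization, medians set equal, array weights or no dim genes. For 12 h against 5 h, 1 mitochondrial gene was lower with only the compared groups, medians set equal or without the pair of arrays. For doxycycline at 0 h, mitochondrial genes lower were 2 with the replicate block (Cars2, Nars2), 2 with a variance trend, 4 with medians set equal or array weights and 3 without dim genes. For doxycycline at 5 h, cytosolic genes higher were 0 with only the compared groups or without the pair of arrays and 2 with a variance trend, cytosolic genes lower 1 with only the compared groups and 4 with a variance trend or array weights, and mitochondrial genes lower 0 with only the compared groups, 3 with quantile normalization or without the pair of arrays and 4 with array weights. For doxycycline at 12 h, 1 mitochondrial gene was lower with only the compared groups.

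Leaving out 1 array or experiment, the cytosolic count at 12 h of tunicamycin ran from 12 to 13 with and without doxycycline, and at 12 h against 5 h from 11 to 13. Mitochondrial genes lower ran from 0 to 1 at 12 h of tunicamycin, 0 to 1 at 5 h, 0 to 2 at 12 h against 5 h, and 1 to 2 at 12 h under doxycycline, and mitochondrial genes higher from 4 to 5 at 12 h, 0 to 4 at 5 h, 2 to 3 at 12 h against 5 h and 1 to 5 at 5 h under doxycycline, where cytosolic genes higher ran from 0 to 3. For doxycycline, cytosolic genes lower ran from 0 to 4 at 0 h, 1 to 2 at 5 h and 3 to 6 at 12 h, mitochondrial genes lower from 0 to 2, 0 to 3 and 0 to 3 at these times, and cytosolic genes higher from 0 to 2 at 5 h. For the interaction at 12 h, mitochondrial genes higher ran from 0 to 1. The values give no depth, since arrays carry intensities, and small changes of dim genes such as Pars2 are the least certain.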
